A study of Mus musculus with 17 samples.

Results

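The late remyelination comparison sets ribosome-bound RNA of mice 2 weeks after the end of cuprizone feeding against that of mice kept on normal chow. All groups were male GFAP-Cre+/- Rpl22HA/wt mice, 8 to 9 weeks old, in which Cre under a GFAP promoter switches on an HA-tagged copy of the ribosomal protein Rpl22 (the RiboTag allele). The cuprizone group ate chow with 0.2% cuprizone, a copper chelator, for 5 weeks and then regular chow to 7 weeks, and the age-matched mock group ate regular chow throughout. The corpus callosum was dissected, tagged ribosomes were pulled down and the bound RNA was sequenced. The 7-week libraries are 6 of the 17 in the series, 3 per group. They were sequenced in the same labelled batch as the 5.5-week libraries, which sampled early remyelination and are used here as a measure of how far libraries of 1 group differ.

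Cuprizone kills oligodendrocytes, and when it is withdrawn oligodendrocyte precursors mature and wrap axons again. Astrocytes respond to the loss of myelin by becoming reactive: they raise the intermediate filaments Gfap and Vim and secrete complement components, protease inhibitors and extracellular matrix. Microglia, the brain's macrophages, clear the myelin debris in the same tract. GFAP promoters can also be active in neural stem cells and in some neurons during development, and a pull-down carries some RNA of untagged cells, so transcripts of other cell types are read here beside those of astrocytes.

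The 3 deposited columns of each 7-week group do not hold 3 separate measurements. Among genes with 500 or more counts, 74.4% of the values of mock 1 and 85.8% of those of mock 2 lay 1 to 10 counts above mock 3. For cuprizone the shares above replicate 2 were 68.7% in replicate 1 and 87.2% in replicate 3. A further 25.6% of genes in mock 1 and 14.0% in mock 2 lay more than 10 counts above mock 3. In cuprizone 1 and 3, 31.3% and 12.6% lay more than 10 counts above cuprizone 2. In none of these 4 columns at 7 weeks did any of the 55414 genes lie below the base library. Between a mock and a cuprizone column, at most 2.25% of genes came within 10 counts. At 5.5 weeks the labelled mock 2 lay 1 to 10 counts above mock 1 in 96.2% of such genes, although 5087 of the 55414 genes had a lower count in mock 2 than in mock 1. Mock 2 was therefore left out and mock 1 and mock 3 were used. Mock 3 and cuprizone 2, with 30400048 and 24670010 counts, were therefore compared as 1 library per group, and no p-value is given at 7 weeks. Single-gene folds carry exact (Clopper-Pearson) 95% intervals in parentheses, which cover counting error only.

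A gene was taken as measured with a CPM (its count relative to the library's TMM-scaled total) of 5 or more in either library, which held for 12055 genes. Of these, 1341 (11.1%) were at least 2-fold higher after cuprizone and 396 (3.28%) at least 2-fold lower, on the log2 scale with a prior count of 2. The median log2 ratio of all measured genes was −0.13. Ratios past 4-fold were found in 574 genes upward and 18 downward. Of the 1341 higher genes, 805 were below 5 CPM in mock and were measured only through the cuprizone library, so their direction was fixed by the minimum. Among the 10778 genes with 5 CPM in both libraries the counts were 536 and 341. Of the 10997 genes with 5 CPM in mock, which the cuprizone library did not help to choose, 536 (4.87%) were higher.

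The 7-week cuprizone library stood apart from the other 6 base libraries of the batch before any gene was considered. It had a count for 34576 genes, against 23240 to 23980 in the others, and 7225 of its genes were seen in no other library, against 189 to 318. Protein-coding genes took 97.6% of its counts, against 99.1% to 99.2%, and long intergenic noncoding RNAs 1.01%, against 0.262% to 0.293%. Between 1018 and 1737 genes differed by at least 2-fold between it and each other library. Libraries of the same 5.5-week group differed in 10 to 56 genes, and the 7-week mock library differed from the 5.5-week mock libraries in 44 and 153. With 1 library per group, what belongs to this library and what belongs to late remyelination cannot be told apart. It cannot be left out, since it is the only measurement of its group.

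**Figure D1:**
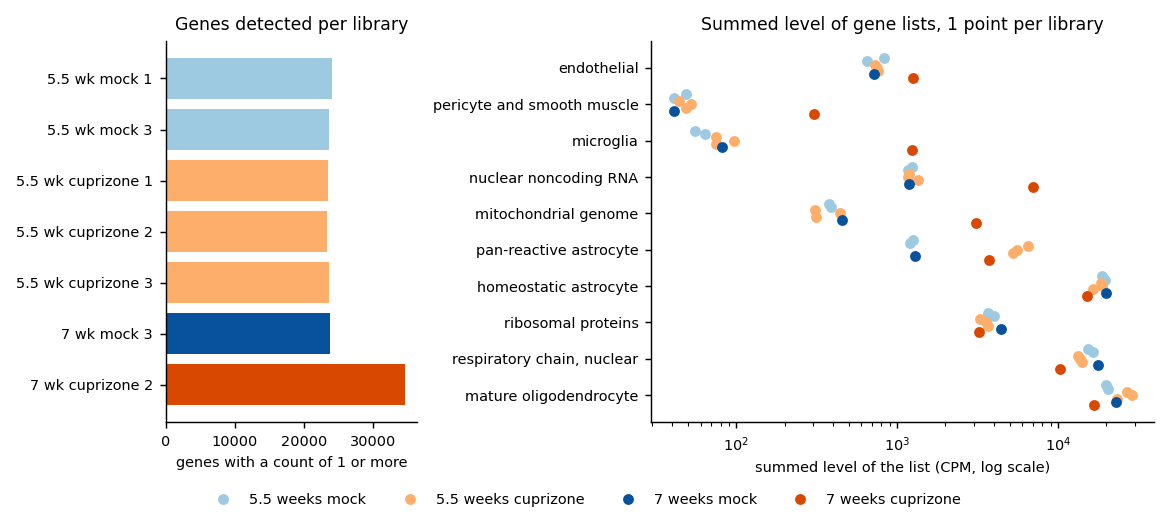
Left, genes with a count of 1 or more in each of the 7 base libraries (bars); right, the summed level of 10 gene lists in CPM on a log axis, 1 point per library. The 7-week cuprizone library holds 34576 genes against at most 23980, and its microglial, pericyte, nuclear and mitochondrial sums lie to the right of the other 6 libraries, while its pan-reactive sum lies between the mock and the 5.5-week cuprizone libraries.

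Astrocyte identity was checked first. The tagged gene Rpl22 was at 32.4 CPM in mock and 28.6 CPM after cuprizone. The glutamate transporters Slc1a2 and Slc1a3, which clear transmitter from synapses and define astrocytes, were at 1744 and 1059.8 CPM in mock and at 1919 and 1153 CPM after cuprizone. Aqp4, the water channel of astrocyte endfeet, was 1.61-fold higher (1.55 to 1.67), and Aldh1l1, a folate enzyme used as a pan-astrocyte marker, was at 153 CPM in mock and 102 CPM after cuprizone. Both libraries thus held the defining genes at high levels. They also held the neuronal synaptic gene Snap25 at 6213 and 3215 CPM and the myelin gene Mbp at 8736 and 5449 CPM.

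Reactive astrocyte genes were still high at 7 weeks. Gfap, the main intermediate filament of astrocytes (ENSMUSG00000020932), was at 1214 CPM in mock and 3415 CPM after cuprizone, 2.81-fold higher (2.78 to 2.85). At 5.5 weeks it was at 1195 and 1147 CPM in the 2 mock libraries and at 6273, 5366 and 5079 CPM in the 3 cuprizone libraries, so the 7-week value lay above the mock libraries used and below all 3 cuprizone libraries of 5.5 weeks. Serpina3n, a secreted serine protease inhibitor, was at 36.8 CPM in mock and 92.9 CPM after cuprizone, and the 3 cuprizone libraries at 5.5 weeks held 94.1, 96.1 and 85.9 CPM. The 7-week value lay within the range of those 3 libraries. Vim, the filament partner of Gfap, was at 20.7 CPM in mock and 110.2 CPM after cuprizone, 5.32-fold higher (4.88 to 5.82). That was above the 62.7, 81.0 and 56.6 CPM of the 5.5-week cuprizone libraries. Summed markers of microglia went from 81.1 to 1230.1 CPM in the same comparison, and those of pericytes and smooth muscle from 41.1 to 305 CPM. The part of RNA of other cell types in Vim, and in Osmr and S1pr3 below, was not tested.

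All 8 measured members of the 13-gene pan-reactive list were at least 2-fold higher, with a median log2 ratio of 2.76. Of these, 5 were measured only through cuprizone, and the 3 with 5 CPM in mock (Gfap, Vim and Serpina3n) had a median of 1.49. Osmr, the receptor subunit for oncostatin M, was 17.0-fold higher (10.7 to 28.7). S1pr3, a sphingosine phosphate receptor, was at 4.25 CPM in mock and 37.1 CPM after cuprizone. Cd44, a hyaluronan receptor that microglia also carry, was at 1.90 CPM in mock and 19.1 CPM after cuprizone, and Aspg, an asparaginase, at 2.38 CPM in mock and 8.50 CPM after cuprizone. Against 5.5-week mock 1 the log2 ratios of Osmr and Cd44 were 2.59 and 2.52, against 3.95 and 3.28 with the 7-week mock. Their summed level, dominated by Gfap, was 1284 CPM in mock and 3723 CPM after cuprizone, against 1210.1 to 6494 CPM over the 5 libraries at 5.5 weeks.

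The lists named A1-type and A2-type after inflammatory and ischaemic injury were less uniform. In the A1-type list 9 of 12 measured genes passed 2-fold upward and 0 downward, with a median of 1.80. Of the 12, 6 were measured only through cuprizone, and of the 6 with 5 CPM in mock 3 were higher, with a median of 1.00. Serping1, the inhibitor of complement C1, was at 1.83 CPM in mock and 21.5 CPM after cuprizone, and the 5.5-week cuprizone libraries held 18.1, 15.5 and 14.5 CPM. Ggta1, a sugar transferase, was 12.6-fold higher (9.25 to 17.6). The complement protein C3 was at 0.242 CPM in mock and 9.38 CPM after cuprizone and Srgn, a proteoglycan of blood-derived cells, at 0.242 CPM in mock and 9.45 CPM after cuprizone. C3 and Srgn are also genes of microglia, whose 20 markers summed to 81.1 CPM in mock and 1230.1 CPM after cuprizone. The part of microglial RNA in these values was not tested. The log2 ratio of C3 against 5.5-week mock 1 was 3.54 in place of 4.90, and with deposited column 1 in place of mock 3 those of Serping1 and Srgn were 2.77 and 3.98 in place of 3.50 and 4.91. In the A2-type list 2 of 4 measured genes were higher: Cd14, a lipopolysaccharide receptor also made by microglia, and Tm4sf1, a membrane protein also made by endothelium. Ptgs2 and S100a10 had log2 ratios of −0.44 and −0.46. S100a10 turned to 0.25 against 5.5-week mock 1.

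**Figure D2:**
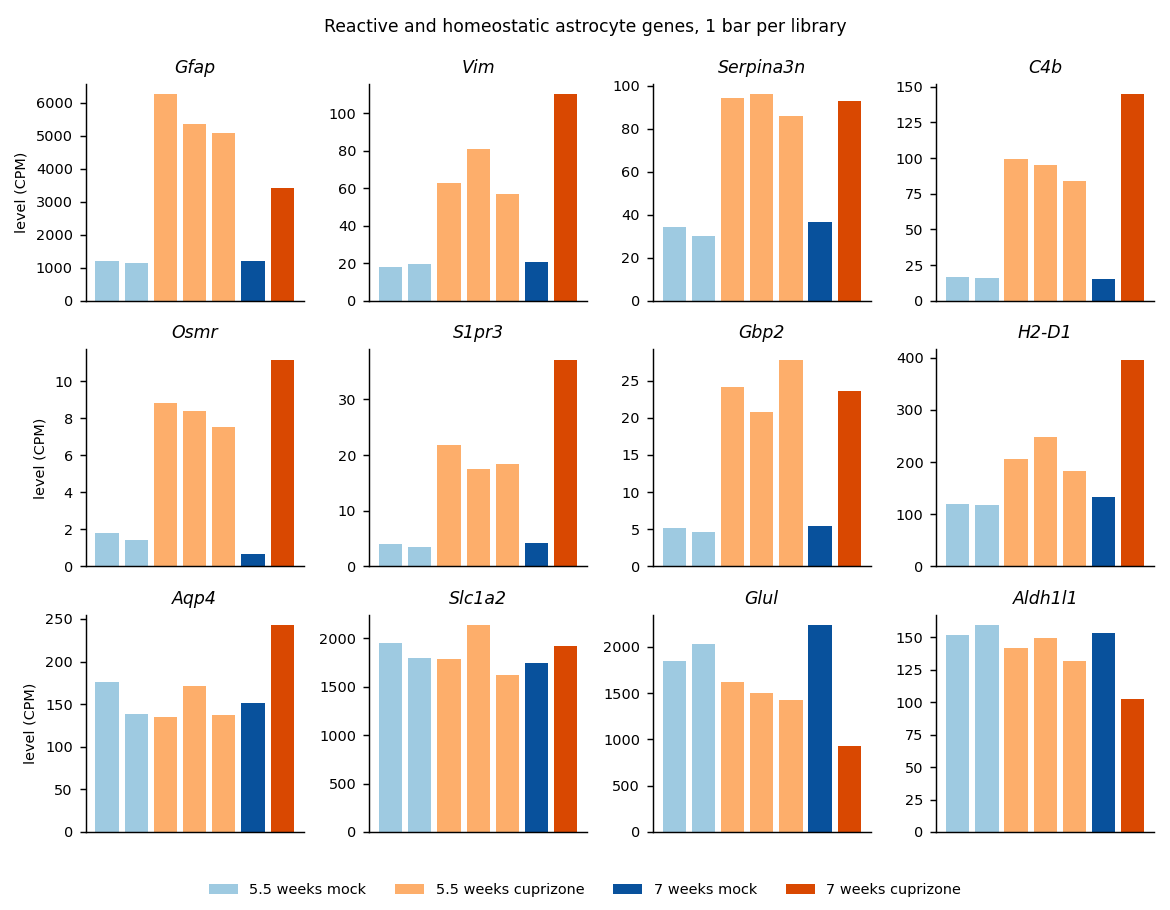
Level in CPM (bars, axes from 0) of 8 reactive and 4 homeostatic astrocyte genes in each of the 7 base libraries, coloured by group. Gfap in the 7-week cuprizone library lies between mock and the 5.5-week cuprizone libraries, C4b and S1pr3 lie above both, and Glul is lowest in the 7-week cuprizone library.

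Homeostatic astrocyte genes, those for potassium buffering, transmitter uptake and gap junctions, stayed near the median of all genes. None of 30 was at least 2-fold higher and 2 were lower, against 11.1% and 3.28% of all measured genes. The list median was −0.29 (5.5 weeks, −0.23), or 0.03 when the libraries were scaled by their totals. Glul, glutamine synthetase, was at 2233 CPM in mock and 926 CPM after cuprizone, 2.41-fold lower (2.38 to 2.45). Its 5.5-week levels were 1849.8 and 2034 CPM in mock and 1619, 1502 and 1426 CPM after cuprizone, so the 7-week cuprizone value was the lowest of the 7. Gpc5, a heparan sulphate proteoglycan, was 2.31-fold lower (2.16 to 2.47). Gjb6, the gap junction protein connexin 30, and Cbs, an enzyme of cysteine synthesis, had log2 ratios of −0.80 and −0.80. With scaling by totals Glul and Gpc5 ended just inside 2-fold, at log2 ratios of −0.95 and −0.88, and Glul was at −0.93 with deposited column 1 in place of cuprizone 2.

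Complement genes were among the highest functional groups. Of 10 measured members 9 were at least 2-fold higher, with a median of 4.19 (5.5 weeks, 0.94). Of these 10, 6 were measured only through cuprizone, and of the 4 with 5 CPM in mock 3 were higher. C4b, the complement component made by reactive astrocytes, was at 15.3 CPM in mock and 145 CPM after cuprizone, 9.49-fold higher (8.60 to 10.5). It had been at 99.6, 95.2 and 83.8 CPM in the 5.5-week cuprizone libraries and at 16.4 and 16.0 CPM in mock, so the 7-week library held the highest level. The C1q subunits C1qa, C1qb and C1qc, made in brain by microglia, were at 80.7, 186 and 171 CPM after cuprizone and at 3.01, 9.54 and 7.39 CPM in mock. C3ar1, the C3a receptor of microglia, was at 0.104 CPM in mock and 13.7 CPM after cuprizone. The complement list shares 3 genes with the microglial markers.

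Interferon-response genes were moderately higher. Of 29 measured members 13 passed 2-fold upward and 0 downward, and the median of 0.97 was close to the 0.95 of 5.5 weeks, when edgeR had called 16 of the 33 listed genes higher. In 9 of the 29 the minimum was met only through cuprizone, and 5 of the 20 with 5 CPM in mock were higher, with a median of 0.69. Trim30a, a regulator of innate signalling, was 8.75-fold higher (5.95 to 13.3), Parp14, an ADP-ribosyltransferase, 7.62-fold higher (4.97 to 12.2), and the antiviral enzyme Rsad2 6.25-fold higher (4.18 to 9.68). Against 5.5-week mock 3 the log2 ratio of Rsad2 was 1.93 in place of 2.56. The guanylate-binding protein Gbp2 was at 5.46 CPM in mock and 23.6 CPM after cuprizone, within the 24.1, 20.7 and 27.8 CPM of the 5.5-week cuprizone libraries. Genes of this group carry a shared promoter element, the interferon-stimulated response element, to which interferon-activated transcription factors bind. It is shown for 5 members that were at least 2-fold higher, as 30 bases of the RefSeq promoter (GRCm38.p6) with the motif GAAANNGAAA in capitals, read 5′ to 3′ on the strand that carries it.
Trim30a, chr7:104465210-104465239, plus strand: caggaactgaGAAAAAGAAActaaagaact
Rsad2, chr12:26456553-26456582, plus strand: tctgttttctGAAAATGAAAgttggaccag
Gbp2, chr3:142620594-142620623, minus strand: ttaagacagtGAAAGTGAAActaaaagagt
Gbp7, chr3:142530273-142530302, minus strand: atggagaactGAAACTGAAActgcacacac
Igtp, chr11:58199512-58199541, plus strand: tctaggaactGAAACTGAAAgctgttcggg
Of the 29 measured genes 23 had a promoter entry, and 16 of these held the motif on either strand within the window from 250 bases before to 50 bases after a start. It was in 9 of the 11 higher genes with an entry and in 7 of the other 12. A gene can have more than 1 entry and was counted if any of them held the motif. Counted by single entries, it was in 3.44% of all 32851 promoter entries. A match describes the letters of the window and shows no binding.

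Antigen presentation genes followed the same direction with larger ratios. 11 of 16 measured genes were at least 2-fold higher, with a median of 1.54 (5.5 weeks, 0.71). With 5 CPM in mock there were 10, of which 5 were higher, with a median of 1.08. H2-D1, an MHC class I heavy chain expressed by most cells, was at 133 CPM in mock and 396 CPM after cuprizone, 2.98-fold higher (2.87 to 3.09), and the 5.5-week cuprizone libraries held 206, 248 and 182 CPM. The class II genes, which microglia and other antigen-presenting cells express, were much further from mock. Cd74, the class II invariant chain, was at 0.760 CPM in mock and 71.1 CPM after cuprizone, and H2-Ab1 at 0.380 CPM in mock and 15.5 CPM after cuprizone. Ctss, cathepsin S, a protease of microglia that processes the invariant chain, was 22.0-fold higher (19.8 to 24.6). The log2 ratio of Cd74 was 6.42, or 5.55 with deposited column 2 in place of mock 3, and that of H2-Ab1 5.10, or 4.46 against 5.5-week mock 1.

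In the extracellular matrix list 16 of 29 measured genes were at least 2-fold higher, with a median of 1.26 (5.5 weeks, −0.12). Of the 29, 11 were measured only through cuprizone, and of the 18 with 5 CPM in mock 5 were higher, with a median of 0.58. The summed level of the list was 4089 CPM in mock and 3799 CPM after cuprizone. Thbs4, a thrombospondin secreted by astrocytes, was at 14.4 CPM in mock and 61.3 CPM after cuprizone and had been at 42.5, 46.8 and 27.0 CPM in the 5.5-week cuprizone libraries. Fn1, fibronectin, was 17.1-fold higher (12.5 to 24.1), Col6a1, a chain of collagen VI, 9.93-fold higher (8.03 to 12.4) and Itga5, a fibronectin receptor, 21.1-fold higher (11.6 to 42.8). The log2 ratios of Fn1 and Itga5 against 5.5-week mock 1 were 2.41 and 2.98, in place of 4.03 and 4.16. At 5.5 weeks Fn1 and Col6a1 had log2 ratios of −0.29 and 0.07. Vessel-wall cells make these proteins too, and the summed pericyte and smooth muscle markers went from 41.1 to 305 CPM in the same comparison. Their part in the matrix ratios was not tested.

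Among genes with an ordinary symbol (no clone or identifier name), the highest ratios belonged to genes of microglia and vessels. For microglia 19 of 20 measured markers were at least 2-fold higher with a median of 4.10, and their summed level was 81.1 CPM in mock, 1230.1 CPM after cuprizone and 55.4 to 96.2 CPM over the 5.5-week libraries. For the endothelium 11 of 13 were higher, with a median of 5.48. For pericytes and smooth muscle 8 of 9 were higher, with a median of 3.36. Most of these markers were below 5 CPM in mock and met the minimum only through cuprizone: 15 of 20, 11 of 13 and 6 of 9. Of those with 5 CPM in mock, 4 of 5 microglial, 0 of 2 endothelial and 2 of 3 pericyte markers were higher, with medians of 4.06, 0.08 and 1.83. At 5.5 weeks the medians of the 3 lists were 0.50, −0.13 and −0.07. In bulk libraries a change in the number of cells of a type and a change in RNA per cell cannot be told apart.

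The gene with the highest log2 ratio among those with an ordinary symbol, 7.72, was Clec7a, a lectin receptor of microglia that engulf myelin. It had 0 counts in mock and 457 after cuprizone, at least 149.8-fold higher against a floor of 3 counts. At 5.5 weeks it was at 0.106 and 0.00 CPM in mock and 0.769, 1.38 and 1.10 CPM after cuprizone. Spp1, osteopontin, was at 0.242 CPM in mock and 51.9 CPM after cuprizone, and Lyz2, the lysozyme of macrophages, at 0.829 CPM in mock and 95.9 CPM after cuprizone. Both had been called higher at 5.5 weeks (edgeR adjusted p = 0.0204 and 0.00185), at levels of at most 3.59 and 6.40 CPM. With deposited column 2 in place of mock 3 the log2 ratio of Spp1 was 6.14 in place of 7.36, and against 5.5-week mock 1 that of Clec7a was 6.44. In the disease-associated microglia list 11 of 17 were higher, 10 of the 17 were measured only through cuprizone, and of the 7 with 5 CPM in mock 1 was higher, with a median of 0.44. The summed level of that list was 9032 CPM in mock and 8698 CPM after cuprizone. Nearly all of the mock sum came from the 7 members with 5 CPM in mock, since each other member was below 5 CPM there. Trem2, the receptor that governs this state, was 32.9-fold higher (24.3 to 45.7).

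The endothelial genes had shown no such difference at 5.5 weeks. Cldn5, the tight junction protein of the blood-brain barrier, was at 0.484 CPM in mock and 56.4 CPM after cuprizone, while the 5.5-week libraries ranged from 0.419 to 0.749 CPM. Flt1, a VEGF receptor, was at 0.657 CPM in mock and 70.4 CPM after cuprizone and Tek, the angiopoietin receptor, at 0.0346 CPM in mock and 16.1 CPM after cuprizone. Vtn, vitronectin, a pericyte gene, was 58.6-fold higher (41.6 to 85.4). Of the 12 highest log2 ratios among genes with an ordinary symbol, the transcription factor Sox17, the adhesion receptor Adgrf5, Cd93 and the adaptor She are also known from endothelium. With deposited column 2 in place of mock 3 the log2 ratios were lower but past 4-fold: Tek 5.07 in place of 7.22, Flt1 4.58 in place of 6.59, Cldn5 5.98 in place of 6.66 and Vtn 4.57 in place of 5.78. Sox17, Adgrf5 and She were at 4.88, 4.70 and 4.84, and Cd93 was at 5.28 against 5.5-week mock 1.

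Markers of stem and precursor cells of the subventricular zone, which borders the corpus callosum, were also higher, 6 of 12, with a median of 1.01 (5.5 weeks, 0.01). With 5 CPM in mock there were 8, of which 4 were higher. Nes, the filament nestin, was 18.3-fold higher (11.5 to 30.7), and Dcx, doublecortin of migrating neuroblasts, 2.58-fold higher (2.24 to 2.98). Prom1 was at 6.46 CPM in mock and 19.0 CPM after cuprizone, within the 19.1, 17.8 and 14.1 CPM of the 5.5-week cuprizone libraries. Nes is made by vessels and reactive astrocytes as well. Its log2 ratio against 5.5-week mock 1 was 3.37 in place of 4.05.

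RNAs that stay in the nucleus or belong to the mitochondrion are not carried by cytoplasmic ribosomes, and both kinds were higher in the 7-week cuprizone library. Of 12 nuclear noncoding RNAs 9 were at least 2-fold higher, with a median of 3.89 and a summed level of 1182 CPM in mock and 7049 CPM after cuprizone. Malat1, an RNA of nuclear speckles, was at 138 CPM in mock and 3267 CPM after cuprizone, and the 5.5-week libraries held between 83.7 and 169 CPM. The imprinted RNA Meg3 was 37.6-fold higher (35.5 to 39.8) and Kcnq1ot1, another imprinted RNA, 49.3-fold higher (37.6 to 66.0). Of 7 measured genes of the mitochondrial genome 6 were higher, with a median of 2.98. mt-Cytb, encoding cytochrome b, was at 87.8 CPM in mock and 1141 CPM after cuprizone, and mt-Co1, a subunit of cytochrome oxidase, 7.89-fold higher (7.56 to 8.25). The medians of both lists at 5.5 weeks were 0.04 and −0.13. With deposited column 2 in place of mock 3 the nuclear median was 3.16 and the mitochondrial median 1.56. Malat1, Meg3 and Kcnq1ot1 then had log2 ratios of 3.06, 3.65 and 3.57 in place of 4.56, 5.23 and 5.57, and mt-Cytb and mt-Co1 of 2.04 and 1.98 in place of 3.70 and 2.98. The calls of mt-Nd2 (−0.10) and mt-Rnr2 (0.83) ended. The part of such RNA in the other ratios was not tested.

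**Figure D3:**
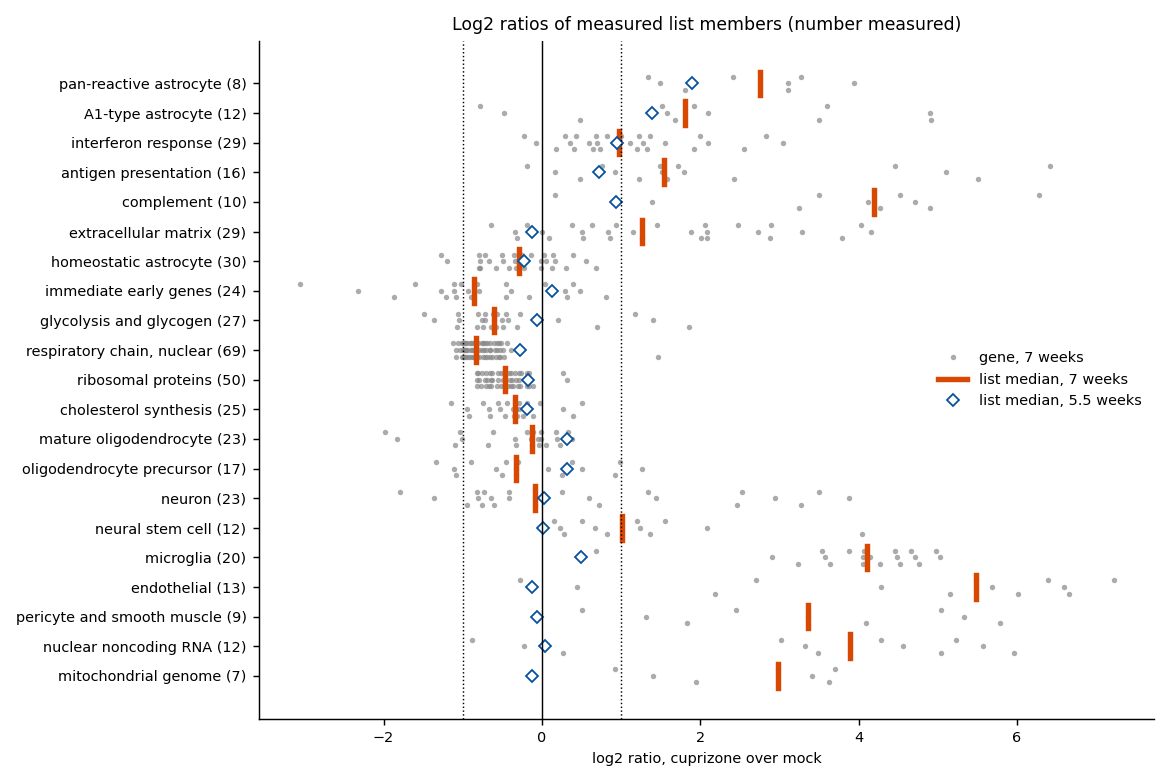
Log2 ratio of cuprizone over mock at 7 weeks for each measured member of 21 gene lists (grey points), with the list median at 7 weeks (bar) and at 5.5 weeks (open diamond); dotted lines mark 2-fold. Microglial, endothelial, pericyte, nuclear and mitochondrial lists lie far right of their 5.5-week medians. Complement and extracellular matrix medians were 4.19 and 1.26, against 0.94 and −0.12 at 5.5 weeks. The pan-reactive, A1-type and interferon medians lie within 1 log2 unit of theirs. Of the microglial, endothelial and pericyte members, 15 of 20, 11 of 13 and 6 of 9 met the minimum only through the cuprizone library, which partly fixed their position. For members with 5 CPM in mock the 7-week medians of these 3 lists were 4.06, 0.08 and 1.83. In the pan-reactive, A1-type and interferon lists 5 of 8, 6 of 12 and 9 of 29 members met the minimum only through that library. In the complement and extracellular matrix lists 6 of 10 and 11 of 29 did.

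Ratios also followed the length of the transcript. Among 10592 protein-coding genes with 5 CPM in both libraries, the 317 whose longest GENCODE M21 transcript is under 1000 bases had a median log2 ratio of −0.60, and the 733 with 8000 bases or more a median of 0.51. The classes between, split at 2000 and 4000 bases, had medians of −0.47, −0.29 and −0.01. Of the longest class 22.2% were at least 2-fold higher and 0.409% lower, and of the shortest 3.47% and 7.57%. The same classes at 5.5 weeks ran from −0.19 to 0.11. Macf1 and Dst, giant linkers of the cytoskeleton, were 3.23-fold higher (3.06 to 3.41) and 3.20-fold higher (3.07 to 3.35), and Lrp1, a large lipoprotein receptor, 2.25-fold higher (2.14 to 2.37). With deposited column 2 in place of mock 3, Macf1 and Dst had log2 ratios of 0.94 and 0.49, and Lrp1 was at 0.99 with column 1 in place of cuprizone 2. What the length gradient contributes to single genes was not tested.

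**Figure D4:**
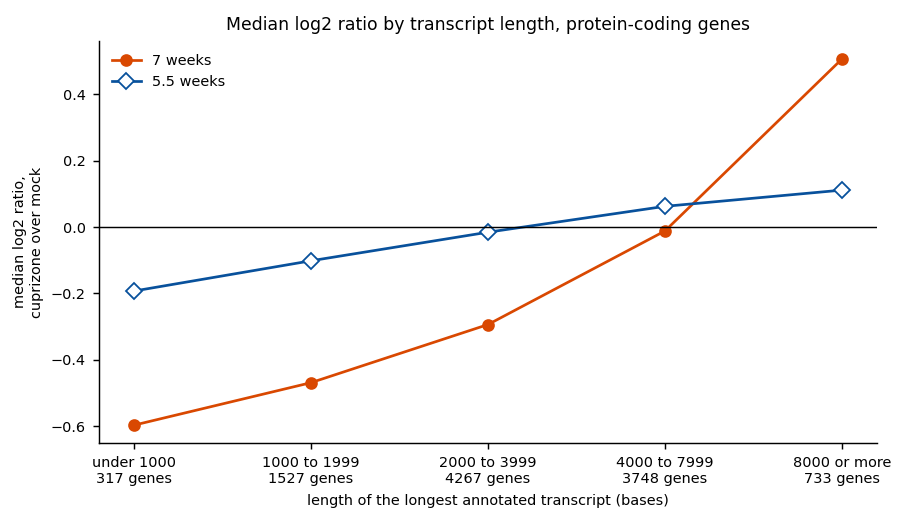
Median log2 ratio of cuprizone over mock for 10592 protein-coding genes in 5 classes of longest transcript length, at 7 weeks (filled points) and at 5.5 weeks (open diamonds). The 7-week medians climb from −0.60 to 0.51 with length, and those of 5.5 weeks from −0.19 to 0.11.

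The nuclear respiratory chain and ribosomal protein lists, both of short transcripts, had the most even shift downward. The mitochondrial genome and ependymal lists, with median longest transcripts of 1144 and 1139 bases, had medians of 2.98 and −0.52. What length contributes to the list medians was not tested. Of 69 nuclear genes of the respiratory chain 1 was above 0, the median was −0.83 and 7 were at least 2-fold lower, among them Cox7a2, a cytochrome oxidase subunit (−1.13), Uqcrb of complex III (−1.09) and Sdhd of complex II (−1.09). By totals these 3 were at −0.81, −0.77 and −0.76, inside 2-fold. The median longest transcript of that list is 1046 bases. The 50 ribosomal protein genes had a median of −0.47 and none past 2-fold in either direction, with a median longest transcript of 1139.5 bases. At 5.5 weeks these medians were −0.27 and −0.17. All protein-coding genes of 1000 to 2000 bases with 5 CPM in both libraries had a median of −0.47 at 7 weeks and −0.10 at 5.5 weeks. The 7-week ribosomal protein median was close to that of this length class, and the respiratory chain median lay below it. Glycolysis and glycogen genes, with a median transcript of 3195 bases, had a median of −0.60. Of 27, 5 were at least 2-fold lower, where 3.28% of all measured genes were, and 3 higher (11.1%, the share of all measured genes). Pdk4, a kinase that inhibits pyruvate dehydrogenase, was 2.84-fold lower (2.38 to 3.40), and Hk2, a hexokinase of microglia among other cells, 3.70-fold higher (2.79 to 4.97). The log2 ratio of Hk2 was 1.01 against 5.5-week mock 3 in place of 1.85. Against 5.5-week mock 1 and mock 3 the log2 ratio of Pdk4 was −0.73 and −0.89.

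Myelin genes, whose return defines remyelination, had a median ratio near that of all measured genes, and their summed level was below mock. Of 23 mature oligodendrocyte markers none was at least 2-fold higher and 5 were lower, where 3.28% of all measured genes were. The summed level of the 23 was 23116 CPM in mock and 16687 CPM after cuprizone. The 5.5-week libraries held 19980 to 28676 CPM in sum. The median of the 23 markers was −0.12 (5.5 weeks, 0.31), or 0.20 with scaling by library totals. Mog, a surface glycoprotein of myelin, was at 250.1 CPM in mock and 282 CPM after cuprizone, and Mbp, myelin basic protein, was at 8736 CPM in mock and 5449 CPM after cuprizone. The 3 cuprizone libraries at 5.5 weeks held 463, 549 and 401 CPM of Mog, above the 7-week value. Ermn, a cytoskeletal protein of late oligodendrocytes, was at 491 CPM in mock and 124 CPM after cuprizone, 3.97-fold lower (3.83 to 4.12), and Anln, anillin of the myelin septin scaffold, 3.57-fold lower (3.30 to 3.86). Against 5.5-week mock 1 their log2 ratios were −1.26 and −1.05 in place of −1.99 and −1.83, and that of Mbp was −0.06 in place of −0.68. Both had also been at lower levels at 5.5 weeks, with Anln called by edgeR (adjusted p = 0.0182) and Ermn not (adjusted p = 0.0509). Cnp, an enzyme of non-compact myelin, had a log2 ratio of −1.10 at 7 weeks and of 0.40 at 5.5 weeks. By totals its 7-week value was −0.78.

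Oligodendrocyte precursor markers had 1 of 17 at least 2-fold higher, 3 lower and a median of −0.33. Of all measured genes 11.1% were higher and 3.28% lower. Olig1, a lineage transcription factor, was at 586 CPM in mock and 231 CPM after cuprizone, while the 5.5-week libraries lay between 488 and 554 CPM. Sox8, another lineage factor, and Neu4, a sialidase, had log2 ratios of −1.09 and −1.11. By totals both were inside 2-fold, at −0.76 and −0.78. Vcan, the proteoglycan versican, was 2.41-fold higher (2.07 to 2.83). Pdgfra, the growth factor receptor that defines precursors, had a log2 ratio of −0.45.

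Cholesterol synthesis, which supplies myelin, had no member at least 2-fold higher. The median of its 25 genes was −0.34 (5.5 weeks, −0.19), or −0.02 with scaling by totals, and the isomerase Idi1 was 2.23-fold lower (1.91 to 2.62). By totals Idi1 had a log2 ratio of −0.83. Fdft1, squalene synthase, had a log2 ratio of −0.92 and had been called lower at 5.5 weeks (edgeR adjusted p = 0.0153). In lipid efflux and transport 4 of 27 genes were higher (14.8%, near the 11.1% of all measured genes), with a median of 0.12. Abca1, the pump that loads cholesterol onto lipoproteins, was at 12.1 CPM in mock and 55.8 CPM after cuprizone, above the 21.9, 25.7 and 21.2 CPM of the 5.5-week cuprizone libraries. Pltp, a phospholipid transfer protein, was 10.6-fold higher (8.60 to 13.3), whereas Apoe, the main lipoprotein of astrocytes, had a log2 ratio of −0.22. The log2 ratio of Pltp against 5.5-week mock 1 was 2.78 in place of 3.38.

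Stress genes showed few calls. Of 22 genes of the unfolded protein response 2 were at least 2-fold lower and none higher, against 3.28% and 11.1% of all measured genes. The list median was −0.29, or 0.04 by totals. Hspa5, the main chaperone of the endoplasmic reticulum, was 2.13-fold lower (2.08 to 2.17) and its partner Sdf2l1 2.54-fold lower (2.34 to 2.76). Hspa5 was inside 2-fold by totals (−0.76), and Sdf2l1 against 5.5-week mock 1 (−0.95). In the integrated stress response 3 of 30 were higher (10%, near the 11.1% of all measured genes) and 4 lower, with a median of −0.39. The higher ones were the amino acid transporters Slc7a5 and Slc7a11 and the stress regulator Nupr1, 2.20-fold higher (1.96 to 2.47), which had been called higher at 5.5 weeks (edgeR adjusted p = 0.00711). Phgdh, the first enzyme of serine synthesis, was 2.13-fold lower (2.05 to 2.21). By totals Phgdh had a log2 ratio of −0.76, and Slc7a5 had one of 0.91 against 5.5-week mock 1. Of the growth factors, Igf1, which supports oligodendrocyte maturation and is made by microglia, was at 0.933 CPM in mock and 16.9 CPM after cuprizone. Its log2 ratio was 4.07, or 3.37 against 5.5-week mock 3, and that of Nupr1 1.13, or 2.00 against 5.5-week mock 1. Bdnf, a neurotrophin, was 2.46-fold lower (2.27 to 2.66), and the alarmin Il33 was 2.45-fold lower (2.38 to 2.53) after having been called lower at 5.5 weeks (edgeR adjusted p = 0.0278). By totals Bdnf and Il33 had log2 ratios of −0.97 and −0.97.

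The lowest ratio among genes with an ordinary symbol was that of a neuronal activity gene, and its group was low as well. Of 24 measured immediate early genes 10 were at least 2-fold lower and none higher, against 3.28% and 11.1% of all measured genes. The list median was −0.86 (5.5 weeks, 0.13). Arc, a synaptic protein made within minutes of firing, was at 649 CPM in mock and 77.8 CPM after cuprizone, 8.34-fold lower (7.99 to 8.71). The 5.5-week libraries held 194 and 148 CPM of Arc in mock and 288, 220.2 and 277 CPM after cuprizone, so the 7-week mock library was the highest of the 7 and the 7-week cuprizone library the lowest. Nr4a1, an inducible nuclear receptor, was at 301 CPM in mock and 60.3 CPM after cuprizone, with 86.4 and 96.8 CPM and 142, 146 and 121 CPM at 5.5 weeks. Junb, an AP-1 subunit, was 3.64-fold lower (3.52 to 3.77), and Dusp1, a MAP kinase phosphatase, 3.05-fold lower (2.88 to 3.24).

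For these genes the 7-week mock library was itself above the 5.5-week mock libraries. Against 5.5-week mock 1 and mock 3, which have the same batch but another time, the median of the immediate early genes was 0.02 and −0.24, and Arc stood at −1.32 and −0.93. Nr4a1 stood at −0.52 and −0.68, so its 2-fold call ended with either control, as did that of Junb (−0.61 and −0.62) and Dusp1 (−0.24 and −0.38).

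A second set of low genes is known from hippocampal and cortical pyramidal neurons, which lie just under and above the corpus callosum. Hpca, the calcium sensor hippocalcin, was at 2963 CPM in mock and 936 CPM after cuprizone, Neurod6, a transcription factor of pyramidal neurons, at 421 CPM in mock and 121 CPM after cuprizone, and Rgs14, a regulator of G proteins enriched in the CA2 field, at 209 CPM in mock and 46.7 CPM after cuprizone. Spink8, a marker of hippocampal pyramidal cells, was 7.00-fold lower (6.13 to 8.02), Fibcd1 4.55-fold lower (4.23 to 4.91) and Wfs1, wolframin, 3.07-fold lower (2.90 to 3.25). These 6 genes are not from a fixed list: they were among the lowest ratios and were grouped after their values were seen. Camk2a and Slc17a7, pyramidal genes of the neuronal list below, were inside 2-fold. Against the 5.5-week mock libraries Neurod6, Rgs14, Spink8 and Fibcd1 were still at least 2-fold lower, Hpca only against mock 3 (−1.21, and −0.86 against mock 1), and Wfs1 against neither (−0.94 and −0.83). With deposited column 1 in place of cuprizone 2, Hpca and Neurod6 had log2 ratios of −0.64 and −0.89, and Spink8 and Rgs14 of −1.46 and −1.29 in place of −2.80 and −2.16.

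Of 23 neuronal markers 8 were at least 2-fold higher and 2 lower, against 11.1% and 3.28% of all measured genes. The median of the list was −0.09. The 8, known from inhibitory interneurons and grouped after their values were seen, were Slc32a1, Gad1, Gad2, Sst, Vip, Reln, Pvalb and Npy. Of the 23, 3 were measured only through cuprizone, and of the 20 with 5 CPM in mock 5 were higher, with a median of −0.41. Gad1 and Gad2, the enzymes that make GABA, were at 41.4 and 17.5 CPM in mock and 228 and 101 CPM after cuprizone. Sst, the peptide somatostatin, was at 11.9 CPM in mock and 135 CPM after cuprizone, and the 5.5-week libraries held 4.19 to 9.58 CPM. Slc32a1, the vesicular GABA transporter, was 15.3-fold higher (11.4 to 20.9), and Penk, the enkephalin precursor of striatal and other GABA neurons, 3.48-fold higher (3.33 to 3.64). The lower markers were Neurod6 and the neuronal enolase Eno2 (−1.36), and Snap25, carried by all neurons, had a log2 ratio of −0.95. Eno2 was inside 2-fold against 5.5-week mock 1 (−0.86) and mock 3 (−0.96).

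**Figure D5:**
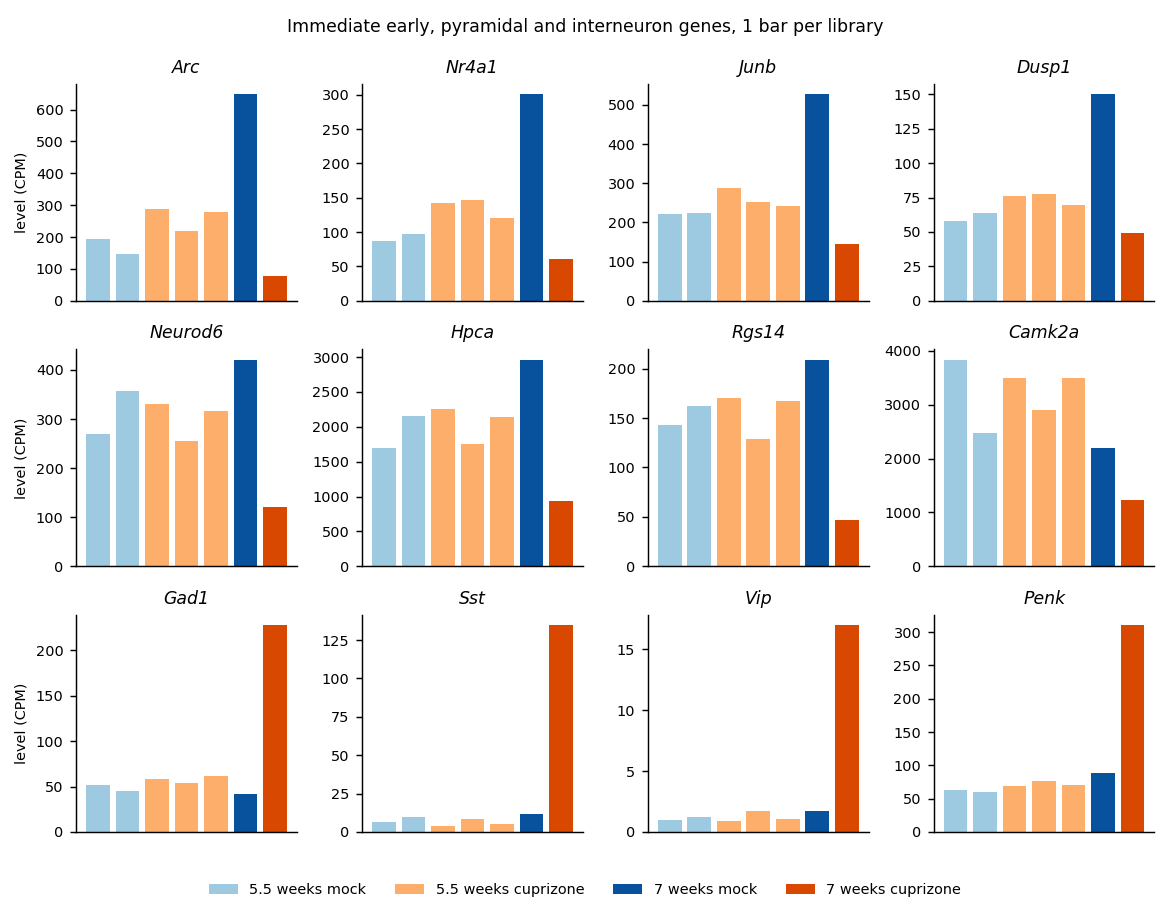
Level in CPM (bars, axes from 0) of 4 immediate early genes (top row), 4 pyramidal neuron genes (middle row) and 4 interneuron genes (bottom row) in each of the 7 base libraries, coloured by group. The 7-week mock library is the highest for Arc, Nr4a1, Junb and Dusp1, the 7-week cuprizone library is the lowest for all 8 genes of the upper rows, and it is the highest for Gad1, Sst, Vip and Penk.

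The 5.5-week difference, measured with 3 cuprizone and 2 mock libraries, gives a set of genes with a test. There edgeR's quasi-likelihood test called 173 of 16086 genes higher (1.08%) and 63 lower (0.392%) at a Benjamini-Hochberg adjusted p under 0.05. Of the 173, 135 were measured at 7 weeks and 80 of these were at least 2-fold higher (59.3%), against 11.1% of all measured genes, and 1 was at least 2-fold lower. These 80 are 5.97% of the 1341. In 121 of the 135 the 7-week log2 ratio was above 0, and in 67 it was smaller than at 5.5 weeks. Of the 63, 50 were measured and 22 were at least 2-fold lower (44.0%, and 5.56% of the 396), against 3.28% of all measured genes, and 1 was higher. The 2 times share no library. The 135 and 50 passed the 5 CPM minimum partly through the 7-week cuprizone library itself.

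Ptgds and Ttr differed between the times. Ptgds, prostaglandin D synthase, was at 348 CPM in mock and 342 CPM after cuprizone at 7 weeks, and had fallen at 5.5 weeks from 296 and 311 CPM in mock to 114, 143 and 107 CPM (edgeR adjusted p = 0.000364). Its 7-week cuprizone level lay above all 5 libraries of 5.5 weeks. Ttr, transthyretin of the choroid plexus, was at 6.67 CPM in mock and 44.0 CPM after cuprizone, and the 5.5-week cuprizone libraries held 9.78, 21.1 and 33.3 CPM (edgeR adjusted p = 0.00694 against mock). With deposited column 1 in place of cuprizone 2 its log2 ratio was 5.22 in place of 2.71, and against the 5.5-week mock libraries it was 5.08 and 4.71. Apart from Ttr, 2 choroid plexus markers were measured, none higher and 1 lower (Kl, with a log2 ratio of −1.83). With deposited column 1 in place of cuprizone 2, Kl was at −0.27. Whether the time differences pass beyond the spread between mice was not tested, since the 7-week groups have 1 library each.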

How the data were processed

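Ribosome-bound RNA was read from the deposited counts per Ensembl gene, made by the authors, per the submitters' processing notes, with FastQC 0.11.9, STAR 2.5.4b and featureCounts 1.6.0. The notes name both GRCm38/mm10 and GRCm39/mm39 without a role, and a strand setting is not given in the sources used here, so reads of overlapping or near-identical genes may be shared and no gene coordinates are given. Symbols from GENCODE M21 matched 52133 of 55414 identifiers. The 4 deposited 7-week columns that repeat a base library were used only to check the repeats and as alternatives, and 5.5-week mock 2, which repeats mock 1, only in that check.

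The 7 base libraries of the batch (22115776 to 30400048 counts) were scaled together by TMM (edgeR 4.0.16, R 4.3.3). Log2 ratios used a prior count of 2, a minimum of 5 CPM in either library and 2-fold as the call. List medians and counts carry no test. The 5.5-week groups were tested with edgeR's quasi-likelihood test, 3 against 2 libraries that the labels call biological replicates. DESeq2 1.42.0 was run as an alternative. The ratio and the fit were tested on simulated data. Transcript lengths are those of the longest GENCODE M21 transcript, and promoters come from RefSeq (GRCm38.p6). The figures were drawn with matplotlib.

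The genes, lists and comparison were chosen with earlier results of these data known. Genes were named by rule: the 12 highest and 12 lowest ratios with an ordinary symbol, the 10 highest and 10 lowest among genes of 50 CPM or more in both libraries, up to 4 members per list with the largest ratios, and 16 reference genes. Apoe, Aspg, Pdgfra, C1qb, Gad1, Gad2, Pvalb, Npy, Camk2a, Slc17a7, Gbp7 and Igtp lie outside the rule and were added to complete their groups after their values were seen.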

Additional observations from a re-analysis of the deposited data

Results flagged for a closer look

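In 4 named genes the 7-week cuprizone library lay on one side of its mock library and all 3 cuprizone libraries of 5.5 weeks lay on the opposite side of both of theirs. The difference between the times was not tested. Arc had a log2 ratio of −3.06 at 7 weeks and 0.62 at 5.5 weeks, and Nr4a1 −2.32 and 0.57. Both are activity genes whose 7-week mock level was the highest of the 7 base libraries. Col1a1, a collagen of fibroblasts, had 3.78 at 7 weeks and −0.96 at 5.5 weeks, on levels of 0.587 CPM in the 7-week mock library and 9.04 CPM in the cuprizone library. Cd4, a receptor of T cells and some myeloid cells, had 2.70 and −1.01, on levels of 2.28 and 15.2 CPM at 7 weeks.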

How the results depend on the processing

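The counts of 1341 higher and 396 lower genes depended on the scaling and on the minimum. With library totals alone they were 2197 and 112, and with the homeostatic astrocyte median set to 0 (added after the data were seen) 2139 and 129. Higher genes were then 95.1% and 94.3% of the calls, against 77.2%, since the median of all genes moved up by 0.32 and 0.29. Without a minimum they were 9299 and 972. Higher genes numbered 3204 with 1 CPM in either library, 536 with 5 CPM in both or in mock, and 740 with a mean of 5 CPM over the 7 libraries. Against 5.5-week mock 1 or mock 3 (added after the data were seen), 231 and 242 genes were lower. With another deposited column in place of a base library, higher genes ranged from 1061 to 1455 and lower genes from 247 to 690. mt-Nd2 then turned to −0.0991 with mock 2 in place of mock 3. The cause was not tested.

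Tests that borrow the spread of the 5.5-week libraries count genes at an adjusted p and not at 2-fold: edgeR called 4847 higher and 3091 lower, and DESeq2 2379 and 2682. The 6 columns taken as replicates gave 8601 and 7349 without a block and 8288 and 7225 with a replicate block, but the columns repeat one another and a shared number pairs nothing. DESeq2 size factors and a prior count of 0.5 kept both counts within 1.5 times.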
